A study of Mus musculus with 12 samples.

Results

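The SOCS family of feedback inhibitors was followed in mouse CD8 T cells that differ in sex and in the level of the Y-linked histone demethylase gene Kdm5d. The members were Cish, Socs1, Socs2, Socs3, Socs4, Socs5, Socs6 and Socs7, taken by symbol through the gene identifiers of GENCODE mouse release M21. All 8 were found among the 55487 identifiers of each of the 2 count tables, and all 8 passed the filter on low counts in both.

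RNA was sequenced from OT-1 CD8+ T cells, whose transgenic receptor recognises a peptide of ovalbumin, in 12 samples that formed 4 groups of 3. Female and Male cells came from spleens of each sex and were activated with beads against CD3 and CD28 together with mouse recombinant IL2 for 3 days. WT and KD cells were a separate batch, both male. KD cells were electroporated with Cas9 and a guide RNA against Kdm5d, WT cells with guide RNA alone, and both were then cultured for 3 days in medium with IL2. No group received Cas9 without that guide, so an effect of Cas9 and an effect of lower Kdm5d cannot be told apart in KD against WT. Likewise, electroporation and batch cannot be told apart when WT is set beside Male. The number of mice and their age were not given in the sources used here, and p-values measure the spread between these samples only, which may be technical.

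SOCS proteins are the classical brake on cytokine signalling through Janus kinases (JAKs) and STAT transcription factors. A cytokine receptor activates its JAKs, these phosphorylate STATs, and the STATs switch on genes that include several SOCS members. The SOCS proteins then bind phosphotyrosines through an SH2 domain and, through the C-terminal SOCS box, recruit Elongin B and C and Cullin-5, a ubiquitin ligase, to the bound target. SOCS1 and SOCS3 also carry a short region that blocks JAK activity directly. In CD8 T cells, CIS (the product of Cish) is a STAT5 target induced by IL2 that also restrains T cell receptor signalling through PLC-gamma1, and SOCS1 limits the response to interferons and to cytokines of the common gamma chain.

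Total counts ranged from 78748647 to 110803318 per sample. Levels are given as CPM, counts scaled to a common library size with TMM factors, computed separately for each table. The knockdown was visible in the target. Kdm5d was at 50.9 CPM ± 1.33 (SD, n = 3) in Male, 50.9 ± 2.22 in WT and 22.0 ± 0.76 in KD, and the Female libraries held 0 to 2 counts of it. On the log2 scale KD differed from WT by -1.21 (edgeR adjusted p 3.13e-08). T cell markers were abundant. The 8 listed genes (Cd3d, Cd3e, Cd3g, Cd8a, Cd8b1, Trac, Lck and Thy1) summed to between 2795 and 4076 CPM. The CD8 chains themselves, Cd8a and Cd8b1, had group means of 499 to 621 and 239 to 277 CPM. The 6 B cell markers summed to at most 6.49 CPM, the 8 myeloid markers to at most 7.23 and the 5 dendritic cell markers to at most 6.41. Ms4a1, S100a8, S100a9, Siglech, Hba-a1 and Hbb-bs had 0 counts in every library.

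Several SOCS genes are known targets of STATs, so the stretches around their start sites that hold STAT or interferon motif letters are shown. RefSeq promoter windows (GRCm38.p6, 250 bases before to 50 after the start) were matched for 4 of the 8 members, Cish, Socs1, Socs3 and Socs4. They were searched for TTCNNNGAA, the palindromic STAT motif, which reads the same on both strands, and, on both strands, for a GAAA followed after 2 bases by another GAAA, a core of the interferon-stimulated response element. TTCNNNGAA was present in 8.30% and the GAAA pair in 3.44% of the 32851 windows of this length. Cish held 2 matches to TTCNNNGAA, Socs3 held 1, and Socs1 held 2 overlapping GAAA pairs. These letters were not found in the Socs4 window. Capitals mark the matches, and each sequence is written 5′ to 3′ on the strand of its gene. The Cish stretch lies on the plus strand at chr9:107296654-107296683, the Socs1 stretch on the minus strand at chr16:10785557-10785656 and the Socs3 stretch on the minus strand at chr11:117969502-117969531.
Cish: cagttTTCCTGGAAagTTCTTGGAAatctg
Socs1: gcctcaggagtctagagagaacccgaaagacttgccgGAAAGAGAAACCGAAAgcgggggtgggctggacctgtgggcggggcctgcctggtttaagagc
Socs3: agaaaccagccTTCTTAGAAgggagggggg
In Cish the matches span bases 1 to 9 and 12 to 20 counted from the RefSeq start. In Socs3 the match spans bases -154 to -146, and in Socs1 the 2 matches begin at -83 and -77. A match is a run of letters and not evidence of binding.

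How abundant each member was can be compared only per transcript length, here CPM per kilobase of the union of annotated exons. In Female cells Socs3, Socs1 and Cish stood together at the top, at 27.98 ± 0.42, 27.9 ± 1.29 and 27.8 ± 0.64 CPM per kb (SD, n = 3), and the ranges of neighbours in this order overlapped. Socs4 followed at 18.7, Socs2 at 17.5 and Socs7 at 11.1. Socs6 at 2.81 and Socs5 at 2.68 were lowest. In Male cells Cish (42.6 ± 0.53 CPM per kb) and Socs1 (40.3 ± 0.65) stood well above Socs3 (21.0 ± 0.25), and the ranges of neighbours did not overlap anywhere in the order. The gap was wider in WT and KD, a separately normalised batch in which electroporation, culture and batch cannot be told apart. WT cells held 73.1 ± 0.52 CPM per kb of Cish and 65.4 ± 1.66 of Socs1 against 17.2 ± 0.57 of Socs3, and KD cells held 69.9 ± 1.48, 59.2 ± 0.74 and 17.4 ± 0.44. Among tested genes ranked by CPM per kb, Cish was at percentile 91.0 in Female and 96.8 in WT, whereas Socs5 was at 52.3 and 54.9. Female and WT differ in sex, batch and treatment.

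**Figure D1:**
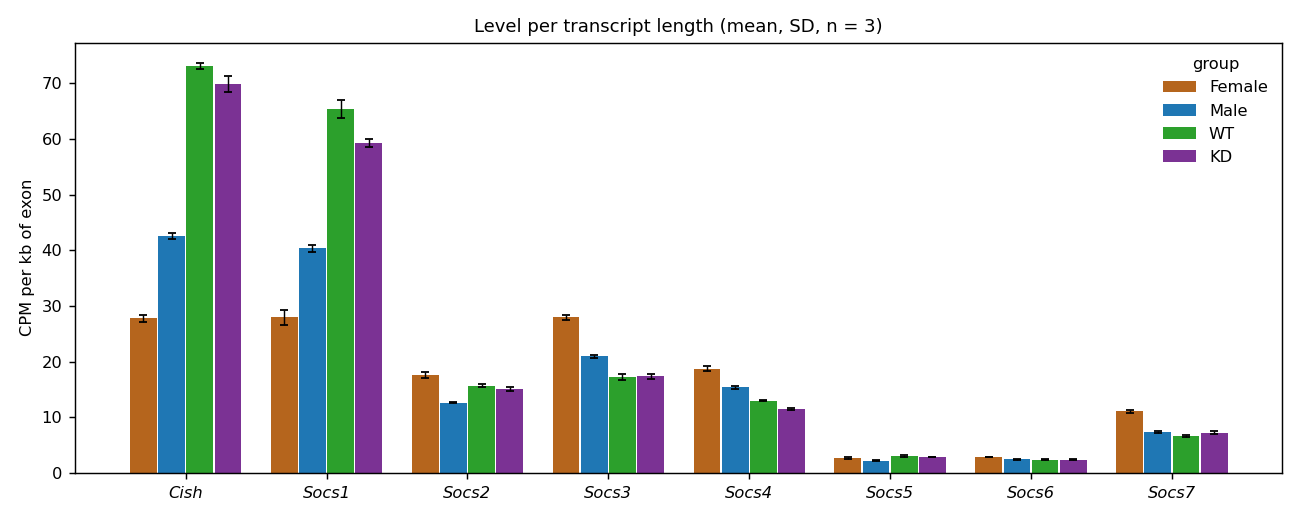
CPM per kilobase of exon for each SOCS family gene, with a bar for the mean of each group and an error bar for the SD (n = 3). Cish and Socs1 are the tallest bars in Male, WT and KD, while in Female they stand level with Socs3, at 27.8 to 27.98.

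Cish and Socs1 together made up 40.8% of the summed family level per kb in Female and 57.6% in Male. In WT and KD they made up 70.5% and 69.6%. With the longest annotated transcript as the length the 4 shares, in the same order, were 37.4%, 54.4%, 66.5% and 65.7%. Socs2 is the member whose place depends most on the length used, since its union of exons (9531 bases) is far longer than its longest transcript (4242 bases): with the latter it ranked 1 in Female and 3 in the other groups. Summed over the family, Female cells held 136.5 CPM per kb and Male cells 143.9. In the other batch, normalised separately, WT cells held 196.4 and KD cells 185.5.

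Whether activated male and female cells differ in these inhibitors was asked first. The family did not move as a block: Cish and Socs1 were higher in Male, and the other 6 members were lower in Male. In each of the 8 genes the 3 Male values lay entirely on one side of the 3 Female values. All 8 were called at an adjusted p under 0.05 (edgeR), 2 higher and 6 lower, where 49.8% of the 20208 genes tested were called, 23.5% higher and 26.3% lower. With only genes at a mean of at least 1 CPM tested, as the members are, 9389 of 13928 were called. Groups did not overlap in 58.3% of genes. The median log2 fold change of the members was -0.29, against 0.011 for all genes tested.

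Cish (chr9:107296026-107302784) encodes CIS, the inhibitor most directly tied to STAT5. It was at 181, 180.3 and 174 CPM in Female replicates 1 to 3 and at 271, 277 and 272 CPM in Male. Every Male sample was far above every Female sample. The log2 fold change was 0.62 (SE 0.023, edgeR adjusted p 9.75e-09), or 1.53-fold. Cish shares 7.46% of its exon bases with the antisense gene Gm17041 and 4.07% with the antisense pseudogene Gm17040, and whether counting used strand was not given in the sources used here. Gm17041 had 0 counts in all samples and Gm17040 between 33 and 116.

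Socs1 (chr16:10782240-10785536), the direct JAK blocker with the strongest hold on interferon signalling, was at 85.4, 78.1 and 80.3 CPM in Female. In Male it was at 119, 116 and 117 CPM. The lowest Male value was well clear of the highest Female value. The log2 difference was 0.53 (SE 0.034, edgeR adjusted p 4.14e-07), or 1.44-fold.

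Socs3 (chr11:117966079-117970047), the other direct JAK blocker, which acts mainly at receptors that use the gp130 chain, went the other way. It was at 82.2, 79.9 and 80.6 CPM in Female and at 61.1, 59.7 and 60.9 CPM in Male. The values within a sex lay close together, and the sexes did not overlap. The log2 fold change was -0.42 (SE 0.025, edgeR adjusted p 2.46e-07). The inhibitors that block JAKs directly therefore differed in opposite directions.

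Socs2 (chr10:95385362-95417180), best known as the brake on growth hormone signalling, was at 171, 161 and 169 CPM in Female. In Male the values were 120.2, 120.5 and 120.6 CPM, the tightest set of replicates in the family. The log2 fold change was -0.47 (SE 0.026, edgeR adjusted p 1.38e-07). Of its 31-base subsequences, 6.18% also occur in transcripts of other genes, so a small part of its counts could be split.

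Socs4 to Socs7 have long N-terminal regions and are less closely tied to STAT induction. Socs7 (chr11:97362551-97398542), which binds adaptor proteins such as NCK, showed the largest fall of the 4. It was at 79.3, 82.4 and 79.2 CPM in Female and at 51.8, 54.3 and 55.0 CPM in Male, without overlap. The log2 fold change was -0.58 (SE 0.031, edgeR adjusted p 1.11e-07), or 0.669-fold. Socs4 (chr14:47276931-47296102), reported to act on the EGF receptor, was at 132, 126 and 129 CPM in Female. It was at 104, 106 and 107 CPM in Male, again fully below. The log2 fold change was -0.28 (SE 0.026, edgeR adjusted p 7.72e-06).

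Socs5 (chr17:87107679-87137839), reported to restrain IL4 signalling, was the least abundant member, at 17.9, 17.4 and 16.3 CPM in Female and 13.9, 14.5 and 13.8 CPM in Male. Its log2 fold change was -0.29 (SE 0.055, edgeR adjusted p 0.00118). Socs6 (chr18:88665224-88927481), reported to act on KIT and LCK, differed least, at 32.2, 31.7 and 31.8 CPM in Female and 28.6, 27.5 and 26.2 CPM in Male. Its groups did not overlap, and the log2 fold change was -0.22 (SE 0.041, edgeR adjusted p 0.00123). It was -0.13 (edgeR adjusted p 0.0233) when trends with transcript length and GC content were removed, an alternative chosen after seeing the data. Of the 31-base subsequences of Socs6, 7.28% also occur in transcripts of other genes, the highest share in the family, so part of its counts could be split. The gene also spans 3 annotated pseudogenes, which share none of its exon bases.

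**Figure D2:**
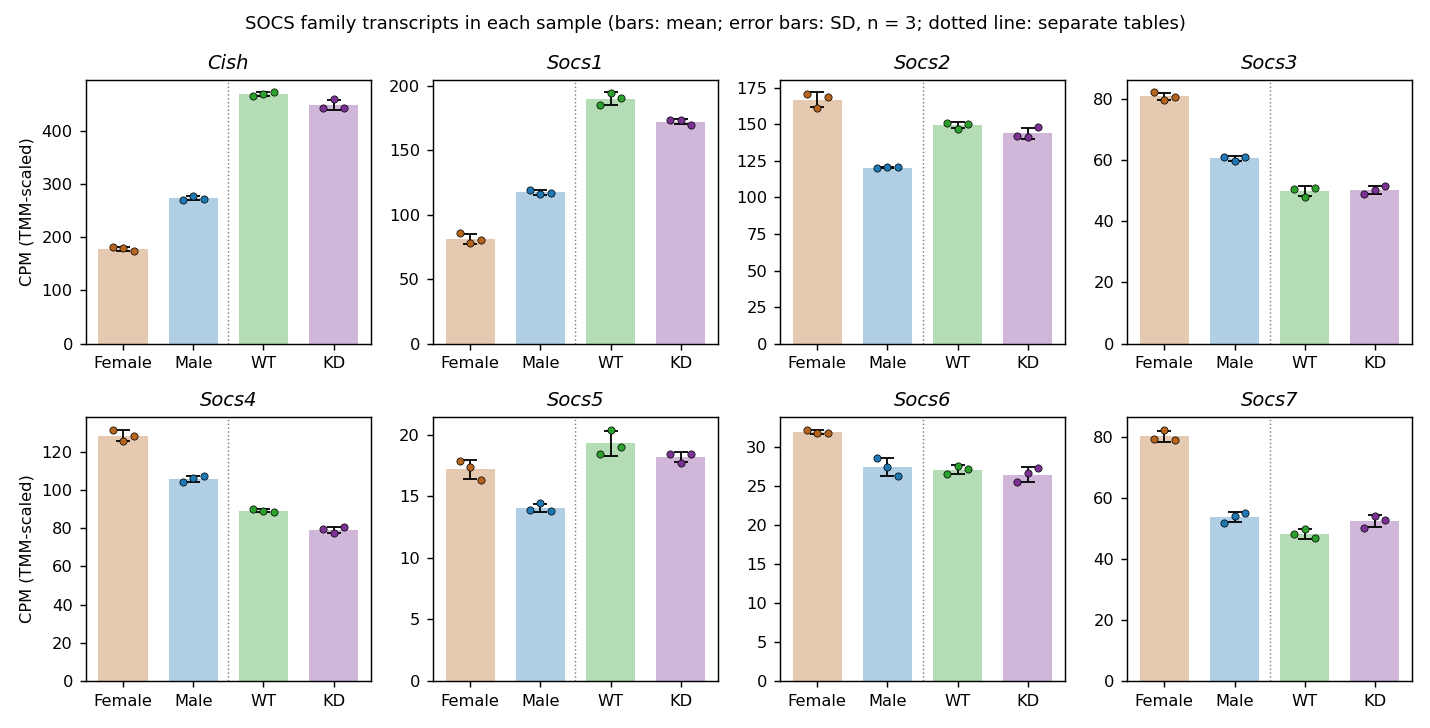
CPM of each SOCS family gene in all 12 samples, with a panel for each gene, points for samples, bars for the group mean and error bars for the SD (n = 3); the dotted line divides the separately normalised tables. In the Female and Male bars, Cish and Socs1 step up and the other 6 genes step down, and the KD bars lie close to the WT bars in all panels.

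None of these differences reached 1 log2 unit: the largest was 0.62, in Cish. With that minimum added to the threshold, 0 of 8 members were called with edgeR, DESeq2 or limma-voom, while 8 of 8 had an unadjusted p under 0.05 in each. For comparison, 7.28% of all genes met this stricter rule in Male against Female. The coefficient of variation between replicates was between 0.150% and 5.28% over the 8 genes and 4 groups. The calls were the same 8 genes, in the same directions, in the 10 other settings and in the 6 fits without 1 replicate.

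Markers that could stand for other cells differed between the sexes as well, where 49.8% of all genes tested were called. Myeloid markers summed to 2.27 to 3.02 CPM in Female and 3.32 to 3.51 in Male, most of it Cd68 at 2.12 and 3.11. Of these 8 genes, 7 were below 1 CPM in every sample, and Csf1r was at 0.286 and 0.293. Dendritic cell markers summed to 3.41 to 4.22 CPM in Female and 2.50 to 3.19 in Male. Zbtb46 was called lower in Male, at 2.68 against 3.76 CPM, and Xcr1 was not called (edgeR adjusted p 0.328). The summed erythroid and platelet markers (6 genes, Hba-a1 and Hbb-bs at 0) were at 6.23 to 7.38 CPM in Female and 1.82 to 2.42 in Male, with 2 of 3 tested members called lower in Male. Pf4, a platelet chemokine, stood at 0.952 CPM in Female against 0.00754 in Male, and Itga2b at 4.99 and 1.20. The 4 CD4 T cell markers summed to 88.7 to 90.8 CPM in Female and 54.9 to 58.7 in Male, most of it Zbtb7b, with Cd4 itself at 0.182 CPM in Female and at 0 counts in the Male libraries. Of these 4 genes, 2 were called lower in Male and 1 higher, the last being Foxp3 at 4.38 against 2.82 CPM (log2 fold change 0.63, edgeR adjusted p 0.0208). The NK list (5 genes) was at 218 to 225 CPM in Female and 323 to 332 in Male, nearly all Nkg7, which activated CD8 cells also make. Of its 4 tested genes 1 was called higher in Male, Nkg7, and 1 lower, Klrb1b, at 0.312 CPM in Female and 0 counts in Male (edgeR adjusted p 0.000164). Their part in the differences of the SOCS genes was not tested.

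The second comparison asked whether lowering Kdm5d in male cells alters the same inhibitors. The differences were small: no member differed by more than 0.17 log2 units, so 0 of 8 reached 1 log2 unit with a call, against 3.96% of all genes. With edgeR, DESeq2 and limma-voom alike, 4 of 8 had an unadjusted p under 0.05. Socs1, Socs4 and Cish were lower in KD, and Socs7 was higher. These 4 of 8 genes were called (edgeR, adjusted p under 0.05), 3 lower and 1 higher, where 35.1% of the 20413 genes tested were called, 18.4% lower and 16.8% higher. When the genes tested were limited to those at a mean of at least 1 CPM, 6966 of 13944 were called. The median log2 fold change of the members was -0.060, against 0.012 for all genes. KD and WT values did not overlap in 5 of the 8 genes and in 46.8% of all genes tested.

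Socs1 was at 185, 195 and 191 CPM in WT replicates 1 to 3 and at 174, 173 and 169.8 CPM in KD. All KD values were below all WT values. The log2 fold change was -0.14 (SE 0.025, 95% interval -0.20 to -0.088, edgeR adjusted p 0.00122). Socs4 was at 90.0, 89.2 and 88.5 CPM in WT and at 79.7, 77.6 and 80.6 CPM in KD, with no overlap between the groups. Its log2 fold change was -0.17 (SE 0.028, 95% interval -0.23 to -0.11, edgeR adjusted p 0.000778), the largest of the family here. Both genes were called in each of the 16 alternative fits.

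Cish was at 466, 469.7 and 472 CPM in WT and at 443, 459 and 443 CPM in KD. The groups did not overlap but lay close, and the log2 fold change was -0.066 (SE 0.019, 95% interval -0.11 to -0.022, edgeR adjusted p 0.0243). The call was lost with upper-quartile factors (-0.035, adjusted p 0.193). It was also lost without KD replicate 1 (adjusted p 0.0849), KD replicate 3 (0.0859), WT replicate 2 (0.0705) or WT replicate 3 (0.0733), all edgeR fits.

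Socs7 was at 48.2, 49.96 and 46.8 CPM in WT and at 50.22, 54.1 and 52.7 CPM in KD. The lowest KD value was just above the highest WT value, and the log2 fold change was 0.12 (SE 0.040, 95% interval 0.026 to 0.21, edgeR adjusted p 0.0475). The call was lost without a filter on low counts (adjusted p 0.0863). It was lost as well without KD replicate 2 (adjusted p 0.137), KD replicate 3 (0.119), WT replicate 1 (0.116) or WT replicate 3 (0.173), all edgeR fits.

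The remaining 4 genes did not pass the test. Socs2 was at 151, 147 and 151 CPM in WT and at 142, 142 and 148 CPM in KD, with an overlap between the groups. Its log2 fold change was -0.054 (95% interval -0.11 to 0.0048, edgeR adjusted p 0.148), and without KD replicate 3 it was called (-0.078, edgeR adjusted p 0.0481). Socs3 was at 50.6, 48.0 and 51.0 CPM in WT and 49.0, 50.3 and 51.5 CPM in KD. Its log2 fold change was 0.012, with an interval from -0.072 to 0.095 (edgeR adjusted p 0.855). Socs5 stood at 18.42, 20.4 and 19.03 CPM in WT and 18.41, 17.7 and 18.42 CPM in KD, just short of an overlap (log2 fold change -0.085, interval -0.20 to 0.029, edgeR adjusted p 0.245). Socs6 stood at 26.5, 27.6 and 27.2 CPM in WT and 25.4, 26.6 and 27.2 CPM in KD (log2 fold change -0.034, interval -0.13 to 0.059, edgeR adjusted p 0.592). For these 4 genes the 95% intervals, which are not adjusted for the number of genes, leave room for changes of up to about 0.20 log2 units.

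**Figure D3:**
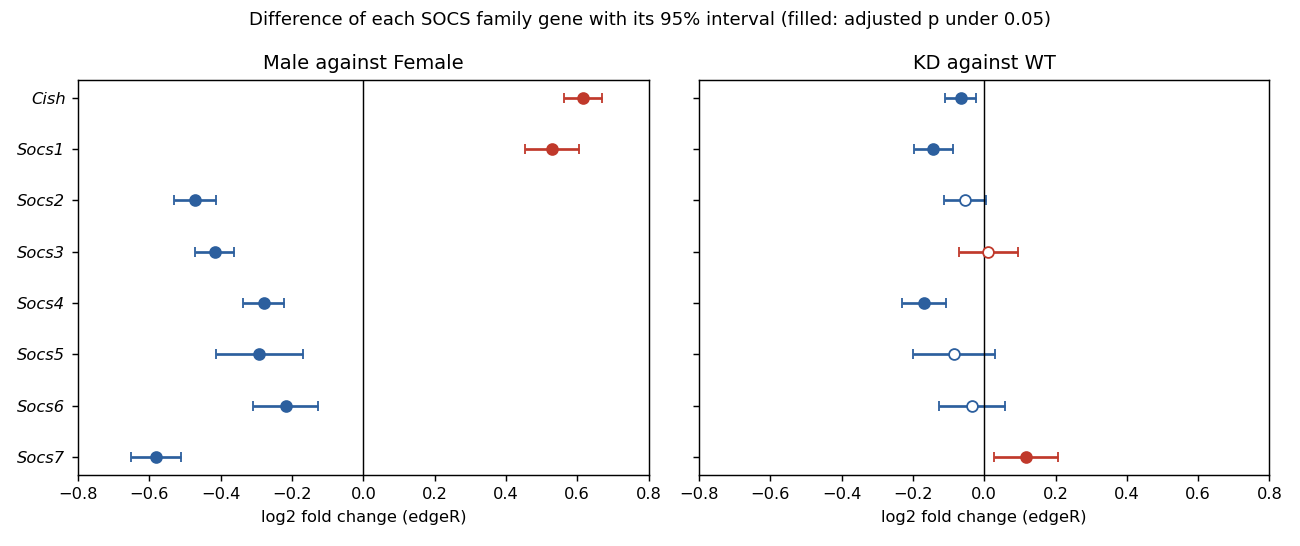
Log2 fold change of each SOCS family gene with its 95% interval from edgeR, Male against Female on the left and KD against WT on the right; filled points are called and open points are not. On the left the points spread from -0.58 to 0.62 with no interval crossing 0, and on the right they lie between -0.17 and 0.12.

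Set side by side, Male against Female and KD against WT share no samples. Cish differed by 0.62 in the first and by -0.066 in the second, and Socs1 by 0.53 and -0.14. Socs7 differed by -0.58 and 0.12. Socs4 was lower in Male, by -0.28, and lower in KD, by -0.17. The other 4 members had values of -0.47, -0.42, -0.29 and -0.22 in the first comparison (Socs2, Socs3, Socs5 and Socs6) and were not called in the second. The difference between the comparisons was not tested.

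Across the tables, which were normalised separately, the mean CPM of Cish in WT was 1.72 times that in Male and that of Socs1 was 1.62 times. Socs5 and Socs2 were at 1.37 and 1.24 times the Male level. Socs3, Socs4 and Socs7 were at 0.823, 0.842 and 0.900 times it, and Socs6 at 0.987 times. Both groups are male cells without a knockdown, but they differ in electroporation, culture and batch, which cannot be told apart, and no test was made.

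Over the 12 samples, normalised together for this purpose, log2 CPM of Cish and Socs1 had a Pearson correlation of 0.996. The samples form clusters by group, so the value mostly describes 4 group levels. Of the 8 SOCS genes, Socs3 ran most nearly opposite to Cish, with a correlation of -0.97, followed by Socs4 with -0.96. Among genes with a mean of at least 1 CPM, those most like Cish were Lrrc59 (0.999), Ifitm2 (0.999) and Srsf2 (0.999), and Socs1 was the 23rd in that order. The genes most like Socs1 were S100a4, Myo10 and Mycn (0.998, 0.997 and 0.997), with Cish the 11th. Pik3ip1, Zmym5 and Sh3bp5 were most like Socs3 (0.997, 0.996 and 0.996), and Krcc1, Ggnbp2 and Supt20 most like Socs4 (each 0.996). Socs7 was closest to Ctdsp2, Mob2 and Fam53b (0.995, 0.994 and 0.993). For Socs2, Socs5 and Socs6 the best matches were lower, with Gltp at 0.977, Chmp1a at 0.977 and Tmub2 at 0.972. Then came Pacs2 (0.976) and Supt4a (0.972) for Socs2, Cdipt (0.969) and Skil (0.967) for Socs5, and Fam3a (0.970) and Gpat4 (0.970) for Socs6. Correlations this high are reached by many genes because the points share their libraries and group levels.

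**Figure D4:**
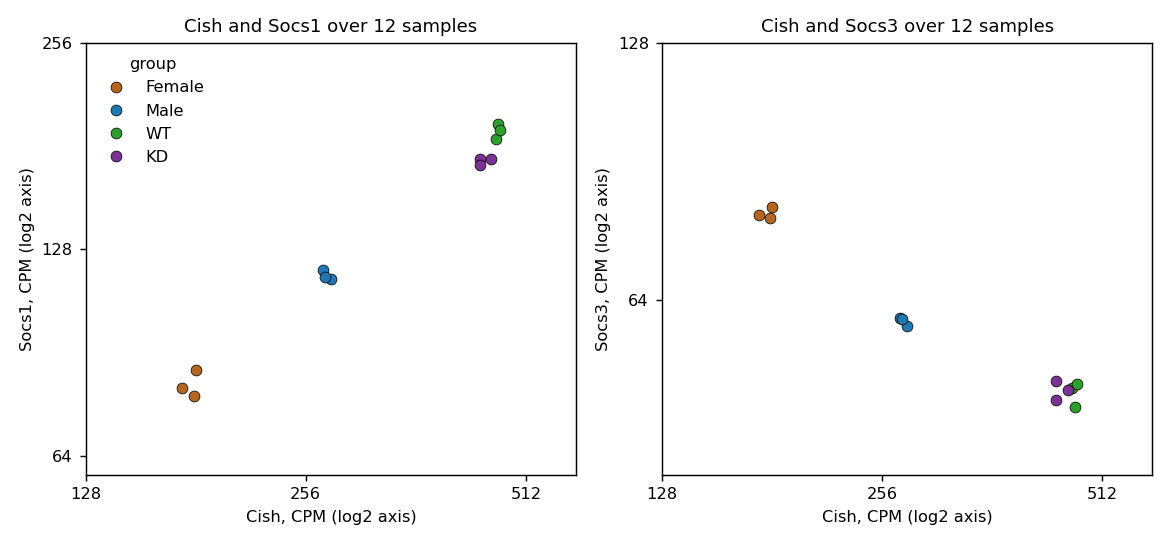
CPM of Cish against Socs1 (left) and Socs3 (right) in each of the 12 samples, on log2 axes, with points coloured by group. From Female to Male to the electroporated groups, Cish and Socs1 rise together and Socs3 falls, with 3 clusters of samples and KD beside WT. The plotted CPM were normalised separately for each table, unlike the values used for the correlations. Electroporation, culture and batch cannot be told apart between Male and WT.

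The rest of the pathway was described from lists of ligands, receptors, kinases, factors and targets. Of 20 listed cytokines that signal through JAKs, 7 passed the low-count filter between Male and Female and 4 were called, each higher in Male. In that comparison 49.8% of all genes tested were called. The median of the 7 was 0.95. Lif, a gp130 cytokine, stood at 173.3 CPM in Male against 20.4 in Female, and Osm, its relative and a STAT5 target, at 50.7 and 26.2 CPM (log2 fold change 0.95, edgeR adjusted p 2.52e-08). Ifng and Il10 were scarce, at 2.22 against 0.399 CPM and at 5.22 against 0.958 CPM. In KD against WT, where 35.1% of all genes tested were called, 1 of 8 tested was called higher and 3 lower. Lif was higher by 0.45, Il10 and Ifng were lower by -0.64 and -0.43, and Osm was at 77.2 against 76.7 CPM (edgeR adjusted p 0.855).

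Of 25 receptor chains, 23 were tested between Male and Female, with 8 called higher, 12 lower and a median of -0.19. In that comparison 49.8% of all genes tested were called. Il2rb, the IL2 and IL15 receptor beta chain that CIS is induced through, stood at 1301 CPM in Male against 772 in Female (log2 fold change 0.75, edgeR adjusted p 2.14e-10). Il12rb1 was higher by 0.77, Ifngr1 lower by -0.19, and Il7r lower by -2.51. In KD against WT, 6 of 20 tested chains were called higher and 10 lower, with a median of -0.12. Of all genes tested there, 35.1% were called. Il2rb was at 1539 CPM in KD and 2265 in WT (log2 fold change -0.56, edgeR adjusted p 1.07e-07). Ifngr1 was at 299.5 and 467 CPM (-0.64), Il12rb1 was lower by -0.36 and Il7r higher by 0.80.

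The 4 JAKs were called in both comparisons with the same signs, where 49.8% and 35.1% of all genes tested were called. Jak3, which pairs with the common gamma chain, was higher in Male (0.35) and in KD (0.33). Jak1, Jak2 and Tyk2 were lower in Male (-0.12, -0.40 and -0.35) and lower in KD (-0.34, -0.58 and -0.35). Of 6 listed STATs, 1 was higher and 4 were lower in Male, with a median of -0.18. Stat2, a partner in the type I interferon response, stood at 145 CPM in Male against 60.4 in Female (1.26). Stat5b, one of the STAT5 genes, was lower in Male at 147 against 223 CPM (-0.60, edgeR adjusted p 3.59e-08), and Stat4 and Stat6 were lower by -0.35 and -0.29. Stat5a, the other STAT5 gene, was not called in Male (0.085, edgeR adjusted p 0.0584) or in KD (0.065, edgeR adjusted p 0.179). In KD 4 of the 6 were lower and the other two were not called, with a median of -0.13: Stat2 by -0.50, Stat4 by -0.66, Stat6 by -0.18 and Stat5b by -0.088 (edgeR adjusted p 0.0357).

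Other inhibitors of the pathway (13 listed, all tested) were called in both directions. In Male 5 were higher and 6 lower, where 49.8% of all genes tested were called. In KD 2 were higher and 7 lower, where 35.1% of all genes tested were called. The medians were -0.026 and -0.11. Usp18, which restrains the type I interferon receptor and is itself interferon-induced, stood at 61.5 CPM in Male against 6.13 in Female (log2 fold change 3.33, edgeR adjusted p 1.11e-11). It was at 9.58 CPM in KD and 29.7 in WT (-1.63, edgeR adjusted p 1.08e-08). Dok2 was higher in Male by 0.91 and lower in KD by -0.60, and Pias3 was lower in Male, at 18.8 against 37.7 CPM, and at 18.3 against 18.4 CPM in KD and WT (edgeR adjusted p 0.941). Ptprc, which encodes the phosphatase CD45, differed by 0.098 and -0.57.

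Partners of the SOCS box followed. Of 6 Cullin-5 ligase genes, 2 were higher and 2 lower in Male, where 49.8% of all genes were called, with a median of -0.037 and a range from -0.33 to 0.20. In KD, where 35.1% of all genes were called, 1 was higher and 3 were lower, with a median of -0.12 and a range from -0.29 to 0.24. Elob and Eloc, the Elongin adaptors, were higher in Male by 0.20 each and lower in KD by -0.23 and -0.15. Arih2, a ligase that works with Cullin-5, was lower in Male by -0.33 and had a value of -0.088 in KD (edgeR adjusted p 0.0683). Ube2f, its NEDD8-conjugating enzyme, was lower in KD by -0.29 and had a value of -0.0035 in Male (edgeR adjusted p 0.963). Of 26 other SOCS-box genes, 15 were tested between Male and Female, with 4 higher and 6 lower (median -0.14), and 17 between KD and WT, with 4 higher and 4 lower (median -0.0022). Asb2 rose in Male and fell in KD, at 18.0 against 9.01 CPM and 29.3 against 59.6 CPM. Asb1 was higher in Male by 0.43 and lower in KD by -0.39. Spsb3 was lower in Male by -0.51 and had a value of 0.079 in KD (edgeR adjusted p 0.449), whereas Wsb2 was lower in KD by -0.43 and had a value of 0.050 in Male (edgeR adjusted p 0.587).

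Among 12 reported SOCS substrates outside the receptor chains listed above and the JAKs, 11 were tested between Male and Female. For these 11 the median was -0.27, with 1 called higher and 6 lower, where 49.8% of all genes tested were called. Of the 10 tested between KD and WT, 4 were called higher and 4 lower, with a median of 0.28. The share of all genes called there was 35.1%. Plcg1, the reported CIS target in T cells, was lower in Male by -0.22 and in KD by -0.34, and Lck was higher in Male by 0.26 and lower in KD by -0.36. Igf1r and Insr, growth factor receptors that signal through IRS proteins, were lower in Male by -1.59 and -0.90 and higher in KD by 1.05 and 0.30.

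The 10 STAT5-induced genes other than Cish were all called between Male and Female, 6 higher and 4 lower, with a median of 0.14. Of all genes tested, 49.8% were called in that comparison. Lta, Osm and Ccnd3 were higher in Male by 1.02, 0.95 and 0.61, and Pim2 was lower by -0.55. In KD 2 were higher and 6 lower, with a median of -0.098: Lta by -0.49, Ccnd3 by -0.18 and Pim2 by 0.17. The 12 listed interferon-induced genes were all called in both comparisons, where 49.8% and 35.1% of all genes tested were called. In Male 11 were higher and 1 lower, with a median of 1.24, and in KD 3 were higher and 9 lower, with a median of -1.16. Mx1, Isg15 and Irf7 were higher in Male by 3.91, 3.06 and 2.38 and lower in KD by -1.30, -2.09 and -1.47. Gbp2, an interferon-induced GTPase, was higher in both, by 0.89 and 0.88. Socs1, which interferon also induces, had the smaller values of 0.53 and -0.14 given above.

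**Figure D5:**
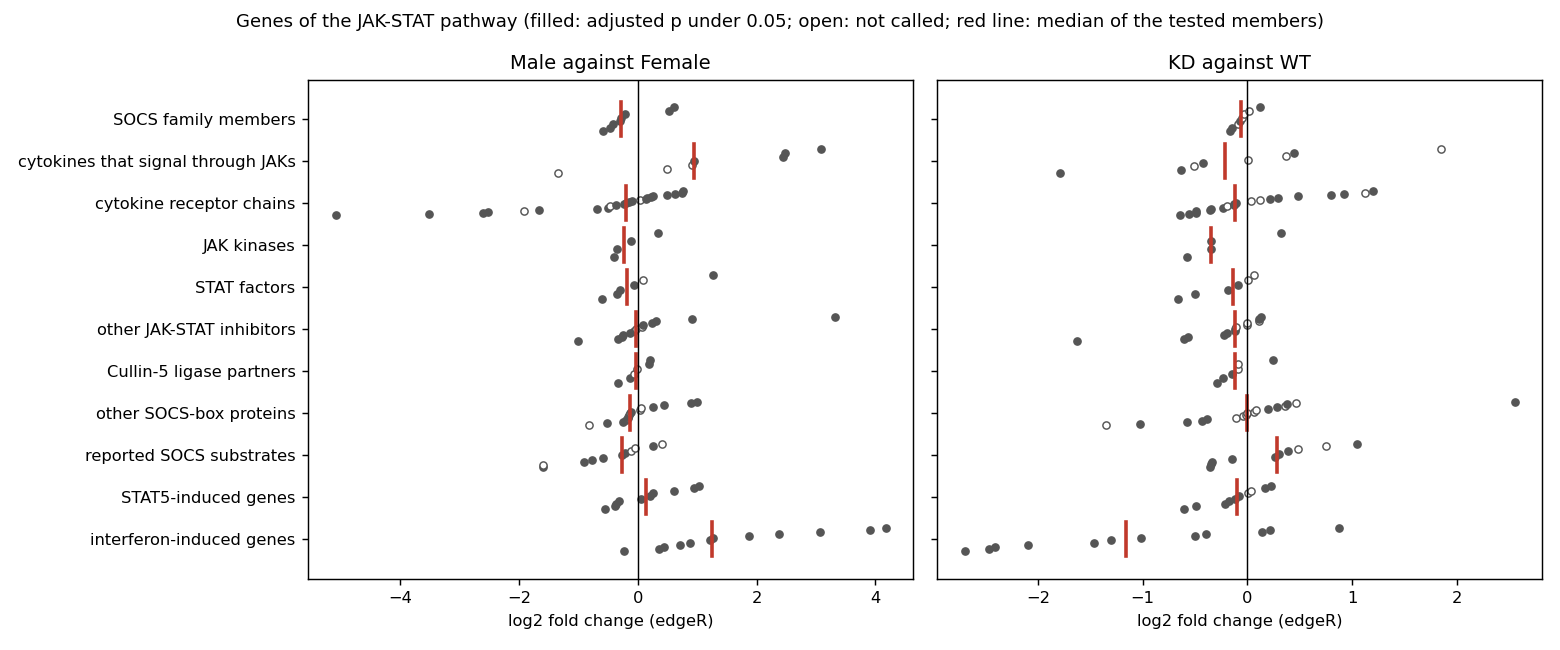
Log2 fold change from edgeR of each tested gene of the SOCS family and of 10 pathway lists, Male against Female on the left and KD against WT on the right; filled points are called, open points are not, and red lines are list medians. The SOCS genes lie between -0.58 and 0.62 on the left, all called, and between -0.17 and 0.12 on the right, while the interferon-induced genes reach 4.17 on the left and -2.70 on the right.

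In KD against WT, where 35.1% of all genes tested were called, the marker lists moved too. The NK list was at 559 to 582 CPM in WT and 456 to 485 in KD. Nkg7 and Klrb1c were called lower, by -0.28 and -0.86. The myeloid list was at 6.20 to 7.23 CPM in WT and 4.42 to 5.38 in KD, most of it Cd68 at 6.20 and 4.13. Of its 4 tested genes, 1 was called lower, Cd68, and 3 were not called. The dendritic cell list was at 6.25 to 6.41 CPM in WT and 4.13 to 4.93 in KD. Xcr1 was called lower in KD, at 2.78 CPM in WT and 1.05 in KD. Zbtb46, the other tested gene, stood at 3.46 and 3.47 CPM (edgeR adjusted p 0.991). Of the 8 T cell markers, 4 were lower in KD, among them Cd3g by -0.35, and in Male 2 were higher and 3 lower. Summed CD4 T cell markers were at 45.0 to 47.3 CPM in WT and 41.0 to 43.7 in KD, with Foxp3 called lower by -0.86, erythroid and platelet markers at 1.58 to 1.73 and 1.44 to 2.01, and B cell markers at 5.40 to 6.49 and 4.00 to 5.23. Their part in the differences of Socs1, Socs4, Cish and Socs7 was not tested. In bulk RNA, fewer cells that make a transcript and less of it per cell cannot be told apart.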

How the data were processed

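The deposited values were treated as unnormalised counts of each gene, in 2 tables: the sexes in one and the knockdown with its control in the other. They were taken as counts because they are whole and library totals differ. The submitters' notes name StringTie, whose gene count matrices are estimated from coverage, and which tool made these values is not given in the sources used here. The submitters' processing notes name bcl2fastq 2.20.0, HISAT2, StringTie, DESeq2 and the build mm10, with no role or order. The annotation and the use of strand are not given in the sources used here. Symbols, positions and lengths came from GENCODE M21 (GRCm38, the same build), which matched 55227 of 55487 identifiers. Promoters came from RefSeq.

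Each table was fitted separately, over all its genes, with edgeR 4.0.16 (R 4.3.3): TMM, filterByExpr, the quasi-likelihood test, Benjamini-Hochberg adjustment and calls at an adjusted p under 0.05. SE came from the log2 fold change and the F statistic. Intervals are 95%.

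All 8 members were named. Of each pathway list up to 4 genes with the smallest p were taken, and for each member the 3 genes with the highest correlation. Stat5a and Cd8a were named in addition, with their values known. One gene of the lists is not reported here. Members and lists were chosen with earlier results of these data known. Alternatives were other scalings and filters, DESeq2 1.42.0, limma-voom (limma 3.58.1), counts divided by 4, 12 samples in 1 fit, a replicate block, leaving out each replicate, and removal of length and GC trends, the last chosen after seeing the data. Replicate numbers come from the titles, and nothing states that they pair samples.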

Additional observations from a re-analysis of the deposited data

How the results depend on the processing

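Over 10 settings, 9389 to 10224 genes were called between the sexes and 6536 to 7385 with the knockdown. Leaving out 1 replicate gave 9190 to 9399 and 6073 to 6685. With a minimum of 1 log2 unit they numbered 1471 and 808, and 0 SOCS genes were called in either comparison. All 8 SOCS genes stayed called for Male against Female in every other fit. For KD against WT 3 to 4 were called over the 10 settings and 2 to 3 without 1 replicate, as Cish, Socs7 or both were lost; without WT replicate 3, 2 were left, Socs1 and Socs4. Without 1 replicate Socs3 in KD against WT ran from -0.014 to 0.030, so its sign changed. With the replicate block, 8 and 4 SOCS genes and 9740 and 6688 genes were called; no SOCS call changed. Deviations of same-numbered samples correlated at -0.0399 to 0.0206, and those of different-numbered samples at -0.0352 to 0.041. With ranges this alike and 3 samples per group, the check cannot decide whether the numbers pair samples. With the longest transcript as the length, 7 of 8 SOCS genes changed rank in at least 1 group. Upper-quartile factors moved the share of KD calls that were higher from 47.7% to 55.0%. Genes at low counts, such as Cd4 and Pf4, are limited by depth; the SOCS genes had at least 1218 counts in each sample.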
